A study of Homo sapiens with 30 samples.

Results

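EA.hy926 endothelial cells were compared after SOAβPIN-SP, soot particles (SP) coated with secondary organic aerosol (SOA) from β-pinene, and after clean air (CA). The comparison holds the 4 libraries whose labels name EA.hy926 and SOAβPIN-SP and the 4 that name EA.hy926 and CA, of 30 libraries in the series. Of 18460 genes in the EA.hy926 count table, 10709 reached 30 counts in 3 or more of the 15 EA.hy926 libraries and were tested. EA.hy926 is a hybrid of human umbilical vein endothelial cells with the lung adenocarcinoma line A549. It grew on the basolateral side of an insert membrane whose apical side carried A549 cells, so the aerosol was deposited on A549 cells and EA.hy926 cells were reached only across them. Exposure lasted 4 h at the air-liquid interface in both groups. The labels give 1 mg/ml of soot and 4 mg/ml of β-pinene, which the paper states per cubic metre for the mixture aged in the reactor. These are not the concentrations over the cells, which per the paper's methods received the aerosol at a dilution of 1:3. β-Pinene, a monoterpene of conifers, was oxidised by hydroxyl radicals in a flow reactor together with soot from a propane burner. Another 3 EA.hy926 libraries received SP alone and 4 received SOANAP-SP, soot coated with oxidised naphthalene.

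The libraries of a group came from separate experiments, numbers 24, 38, 42 and 53 for CA and 34, 35, 37 and 38 for SOAβPIN-SP. Only experiment 38 held both, so elsewhere the exposure and the experiment cannot be told apart, and since all replicates are cultures of 1 cell line, the p-values measure the spread between these experiments. Total counts were 10508285 to 13713770 in CA and 10255705 to 11707192 in SOAβPIN-SP. On the first principal component of the 15 libraries, which held 43.0% of the variance, CA lay at −31.3 to −24.9 and SOAβPIN-SP at 5.49 to 9.02. The CA libraries were not alike: transcripts of the mitochondrial genome were 2.58% and 2.59% of the counts in replicates 1 and 4 and 4.64% and 4.75% in replicates 2 and 3, against 2.87% to 4.02% in SOAβPIN-SP. Of 33 endothelial markers 27 were tested, with a summed level of 4940 to 6277 CPM (counts scaled to the library total) in CA and 5352 to 6653 in SOAβPIN-SP, and CDH5, the cadherin of endothelial junctions, reached counts of 2865 and 2731. VWF, which encodes von Willebrand factor, had at most 26 counts in any of the 8 libraries. The epithelial keratins KRT7, KRT8 and KRT18 were present while the epithelial adhesion genes EPCAM and CDH1 had at most 4 and 2 counts. The 29 of 32 epithelial markers in the table summed to 1944 to 2251 CPM in CA and 2053 to 2350 CPM in SOAβPIN-SP, and 4 and 10 of them were at 0 in every library of the group. The 23 epithelial markers that were too low to test summed to 164, 56, 45 and 55 counts in CA replicates 1 to 4 and 39, 39, 28 and 57 in SOAβPIN-SP, with AGR2 (37), ELF3 (23), FGA (18) and FGG (12) highest in CA replicate 1. The part of these markers in the results was not tested, and without CA replicate 1 there were 501 upregulated and 640 downregulated genes. These are bulk samples, in which fewer cells of a type and less RNA per cell cannot be told apart.

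Endothelial cells answer growth factors, cytokines and injury within minutes to hours by transcribing immediate early genes such as FOS, EGR1 and the NR4A receptors, without new protein synthesis. Membrane-bound ligands of the EGF receptor, when shed, activate the mitogen-activated protein (MAP) kinase cascade that drives these genes, and the same cascade induces its own inhibitors. The transcription factor NF-κB induces chemokines that attract leukocytes and, in a negative feedback, the proteins that switch it off.

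After SOAβPIN-SP, genes of these 3 programmes were higher than after CA, whereas several p53 targets, the vascular peptide apelin and PDGFB were lower. In edgeR's quasi-likelihood test, 540 of 10709 genes (5.04%) were upregulated and 657 (6.14%) were downregulated, together 1197 (11.2%) differentially expressed genes (DEGs), for which the Benjamini-Hochberg adjusted p did not exceed 0.05 and the log2 fold change reached 0.5 either way. The median log2 fold change over the tested genes was −0.01. For 1182 genes (11%) every SOAβPIN-SP library lay above every CA library, and for 1302 (12.2%) every one lay below. Among the DEGs, 478 of the upregulated and 571 of the downregulated genes had groups that did not overlap. The gene lists described here are read against these shares, and members outside the naming rule (such as JUN, NRG2 and CSF1) are named after their values were seen. The filter counted exposed libraries too, so list members scarce in CA could be tested because they rose, which favours upregulated members.

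The 10 largest increases among DEGs whose groups did not overlap and whose higher group had a mean normalised count of 100 or more, so that genes scarce in CA could enter through the exposed libraries, were those of CXCL8, NR4A2, HS3ST1, ERRFI1, FOSB, SERPINB2, GEM, NR4A1, CCDC68 and IL6. Their fold changes ran from 4.22 (IL6) to 7.96 (CXCL8). The 10 largest decreases, to 0.262 to 0.377 of the CA level, were those of ZNF587B, FAM43A, HIC1, PDGFB, APLN, AJUBA, GIMAP6, ZNF260, ELMSAN1 and SYNPO. The plot of counts by library shows examples of both directions beside genes that were not DEGs.

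**Figure D1:**
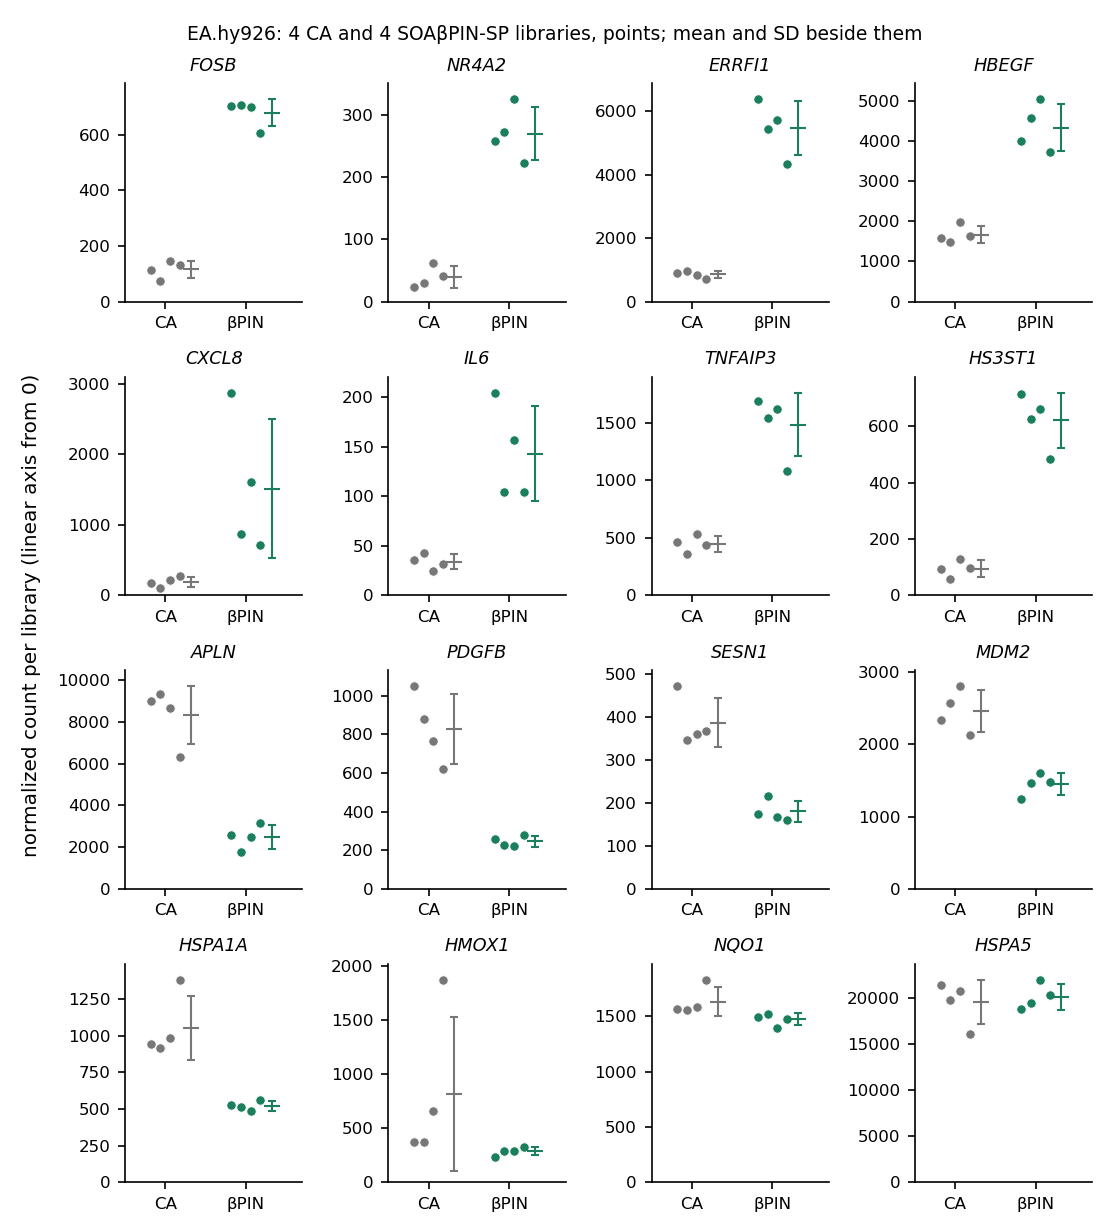
TMM-normalised counts (vertical axis, linear, from 0) of 16 genes in EA.hy926 cells. Each point is 1 library (4 CA in grey, 4 SOAβPIN-SP in green), with the group mean and SD beside the points. FOSB through HS3ST1 lie higher after SOAβPIN-SP in all 4 libraries, APLN through HSPA1A lie lower in all 4, HMOX1 is high in 1 CA library (1870), and NQO1 and HSPA5 were not DEGs.

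Of 30 immediate early genes, 27 were tested, 16 were upregulated and 3 were downregulated, with a median log2 fold change of 0.70. The AP-1 subunit FOSB had normalised counts of 112, 73.9, 145 and 130 in the CA replicates 1 to 4 and 703, 706, 700 and 605 in the SOAβPIN-SP replicates. The orphan nuclear receptor NR4A2 had 23.1, 30.03, 62.8 and 41.0 in CA and 258, 273, 326 and 223 in SOAβPIN-SP. In both genes the lowest exposed library lay far above the highest CA library. FOSB rose by a log2 fold change of 2.55 ± 0.23 (SE; adjusted p = 2.54e-06 in edgeR's quasi-likelihood test, n = 4 and 4), and NR4A2 by 2.79 ± 0.26 (adjusted p = 2.5e-06). The related receptor NR4A1 rose from 42.7 to 126 in CA to 329 to 559 (log2 fold change 2.17 ± 0.29, adjusted p = 0.000123 in edgeR).

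FOS, the founding AP-1 subunit, had 37.6, 32.3, 47.9 and 33.8 in CA and 235, 161, 97.0 and 80.6 after SOAβPIN-SP. The groups did not overlap, the exposed libraries differed among themselves with replicate 1 highest, and the increase of FOS was 1.91 ± 0.43 on the log2 scale (adjusted p = 0.00499, edgeR). EGR1, a zinc finger factor, was scarce, at 3.08 to 13.8 in CA and 25.1 to 54.3 after exposure, and rose by 2.27 ± 0.49 (adjusted p = 0.00275, edgeR). GEM, a GTP-binding protein that inhibits calcium channels, rose from 114 to 225 in CA to 606 to 1064, without overlap. The 3 members that fell were JUN, which forms AP-1 with FOS proteins (log2 fold change −0.56), RGS2, which turns off G proteins (−0.57), and BTG2, an antiproliferative gene (−0.89). Without CA replicates 1 and 4, an alternative chosen after seeing their mitochondrial share, 14 members rose, and FOS was no longer a DEG (log2 fold change 1.82, adjusted p = 0.0634 in edgeR).

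Promoters of 9 upregulated genes are shown because they carry motifs known to bind AP-1, NF-κB, serum response factor or the cAMP-responsive factor CREB. They are the 250 bases before RefSeq's annotated start of transcription (GRCh38.p14), 5′ to 3′ on the gene's strand, with each motif match in capitals. The motifs searched on both strands were the cAMP response element (CRE) TGACGTCA and its half-site TGACG, which the full element contains, the AP-1 site TGANTCA, the CArG box bound by serum response factor and the NF-κB site by its consensus. Of the tested genes 8514 had a promoter in the table, and of the 142 named genes 112 had one.
FOS, chr14:75278578-75278827, plus strand: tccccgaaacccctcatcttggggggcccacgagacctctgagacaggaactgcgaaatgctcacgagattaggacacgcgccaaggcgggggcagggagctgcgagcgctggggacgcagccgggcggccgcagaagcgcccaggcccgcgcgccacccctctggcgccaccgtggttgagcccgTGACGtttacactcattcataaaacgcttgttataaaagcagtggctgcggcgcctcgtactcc
FOSB, chr19:45467746-45467995, plus strand: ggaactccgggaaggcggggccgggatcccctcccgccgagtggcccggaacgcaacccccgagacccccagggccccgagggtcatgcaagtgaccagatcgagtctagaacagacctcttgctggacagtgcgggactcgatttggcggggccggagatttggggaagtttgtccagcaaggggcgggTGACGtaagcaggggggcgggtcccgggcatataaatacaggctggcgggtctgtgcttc
EGR1, chr5:138465229-138465478, plus strand: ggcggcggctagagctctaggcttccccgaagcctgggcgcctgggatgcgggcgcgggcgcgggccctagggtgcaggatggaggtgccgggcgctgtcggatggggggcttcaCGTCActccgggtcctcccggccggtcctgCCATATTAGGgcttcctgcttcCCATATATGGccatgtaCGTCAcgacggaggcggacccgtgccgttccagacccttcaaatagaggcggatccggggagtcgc
AREG, chr4:74444886-74445135, plus strand: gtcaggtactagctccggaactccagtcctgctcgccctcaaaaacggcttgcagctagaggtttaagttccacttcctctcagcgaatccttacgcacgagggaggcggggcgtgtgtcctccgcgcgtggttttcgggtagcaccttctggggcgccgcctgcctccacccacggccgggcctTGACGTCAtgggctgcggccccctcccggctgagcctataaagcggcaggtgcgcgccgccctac
PPP1R15A, chr19:48872171-48872420, plus strand: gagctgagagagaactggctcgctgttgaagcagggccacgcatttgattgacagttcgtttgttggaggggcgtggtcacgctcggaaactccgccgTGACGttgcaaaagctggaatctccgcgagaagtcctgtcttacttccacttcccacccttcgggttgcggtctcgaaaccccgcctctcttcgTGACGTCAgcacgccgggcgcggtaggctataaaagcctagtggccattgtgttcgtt
CXCL8, chr4:73740319-73740568, plus strand: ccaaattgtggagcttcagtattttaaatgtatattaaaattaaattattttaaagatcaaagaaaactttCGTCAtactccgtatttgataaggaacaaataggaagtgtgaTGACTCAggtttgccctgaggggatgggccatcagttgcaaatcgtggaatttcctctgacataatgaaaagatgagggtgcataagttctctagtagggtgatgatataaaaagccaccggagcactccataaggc
CXCL1, chr4:73869143-73869392, plus strand: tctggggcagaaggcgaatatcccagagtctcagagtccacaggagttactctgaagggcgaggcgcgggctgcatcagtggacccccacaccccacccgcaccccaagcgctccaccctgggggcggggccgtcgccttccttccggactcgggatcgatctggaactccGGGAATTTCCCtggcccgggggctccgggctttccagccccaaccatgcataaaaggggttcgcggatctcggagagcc
IL6, chr7:22726950-22727199, plus strand: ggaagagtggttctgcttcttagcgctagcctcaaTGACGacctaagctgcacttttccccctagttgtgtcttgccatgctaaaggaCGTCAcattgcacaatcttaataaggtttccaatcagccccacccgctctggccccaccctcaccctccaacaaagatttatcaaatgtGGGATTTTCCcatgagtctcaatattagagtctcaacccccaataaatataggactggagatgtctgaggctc
TNFAIP3, chr6:137867009-137867258, plus strand: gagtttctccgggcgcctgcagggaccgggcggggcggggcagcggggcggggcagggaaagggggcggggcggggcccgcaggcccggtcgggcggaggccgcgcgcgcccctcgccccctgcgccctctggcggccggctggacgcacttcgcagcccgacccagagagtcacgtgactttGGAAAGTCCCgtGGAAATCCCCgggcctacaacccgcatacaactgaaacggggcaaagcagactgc

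PPP1R15A, CXCL8 and IL6 also carried CRE half-sites. In FOS and FOSB the capitals mark 1 CRE half-site, starting 64 and 60 bases before the start. EGR1 had 2 CArG boxes at −105 and −83 between 2 CRE half-sites. AREG and PPP1R15A had the full CRE at −65 and −58, CXCL8 an AP-1 site at −137, CXCL1 an NF-κB site at −79 that was matched in 2 overlapping registers, IL6 1 NF-κB site at −73 and TNFAIP3 2 at −67 and −55. Over the 8514 promoters the full CRE was present in 3.16%, its half-site in 31.5%, the AP-1 site in 3.76%, the CArG box in 0.975% and the NF-κB site in 9.18%. Over the promoters of the 427 upregulated genes with a sequence the same shares were 3.98%, 29.5%, 5.62%, 1.41% and 10.8%, and over 501 downregulated genes 1.8%, 25.5%, 5.39%, 1.2% and 7.39%. The matches describe the sequence within this window and were not tested as binding sites. Only exact matches were marked, so a promoter without one, such as CXCL8 for NF-κB, may hold a variant of the site.

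Several ligands of the EGF receptor family rose. Of 9 members tested of 15, 4 ligands were upregulated (AREG, HBEGF, NRG1 and TGFA) and 1, NRG2, was downregulated (log2 fold change −0.67). HBEGF, heparin-binding EGF-like growth factor, had 1579, 1493, 1972 and 1639 in CA and 4003, 4585, 5047 and 3723 after SOAβPIN-SP. NRG1, neuregulin-1, had 1775, 1787, 2212 and 1698 in CA and 4642, 4525, 4540 and 3954 after exposure. The exposed libraries of both ligands lay above all CA libraries, and the log2 fold changes were 1.38 ± 0.13 (adjusted p = 3.05e-06) and 1.24 ± 0.08 (adjusted p = 9.47e-09) in edgeR's quasi-likelihood test. Amphiregulin (AREG) rose from 13.9 to 27.7 in CA to 50.2 to 79.1 (log2 fold change 1.67 ± 0.25). EGFR itself stood at 166 to 250 and 175 to 222, a log2 fold change of −0.07 ± 0.14 (adjusted p = 0.791, edgeR), its partner ERBB2 changed by 0.01, and the list's median was 0.07. The 4 rises held in each fit that left out 1 library, whereas no member fell in 6 of those 8 fits (all but the omission of CA replicate 3 or SOAβPIN-SP replicate 4).

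Feedback inhibitors of the same cascade rose with the ligands. ERRFI1, which binds the EGF receptor kinase and blocks it, had 895, 952, 846 and 720 in CA and 6379, 5439, 5708 and 4335 after SOAβPIN-SP. The groups lay far apart, and the log2 fold change of ERRFI1 was 2.68 ± 0.14 (adjusted p = 7.57e-09, edgeR). Of 16 MAP kinase and EGF receptor feedback genes tested, 7 were upregulated and 1 (SPRED2, −0.62) was downregulated, the latter not without SOAβPIN-SP replicate 2, and the median was 0.23. Sprouty genes, inhibitors of receptor tyrosine kinase signalling, were among them: SPRY4 rose from 132 to 168 to 382 to 541 (log2 fold change 1.57 ± 0.14) and SPRY2 from 321 to 441 to 720 to 885 (0.98 ± 0.10). The MAP kinase phosphatase DUSP8 rose from 27.7 to 41.5 to 74.3 to 114, while DUSP6, a phosphatase specific to ERK, stood at 202 to 391.5 in CA and 266 to 358 after exposure (log2 fold change −0.04 ± 0.15, adjusted p = 0.879).

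Of 36 cytokines and chemokines, 15 were tested, 9 were upregulated and 1 was downregulated, and the median log2 fold change was 1.50. CXCL8, the neutrophil chemoattractant interleukin-8, had 169, 105, 216 and 267 in CA and 2871, 870, 1604 and 705 after SOAβPIN-SP. All exposed libraries lay above all CA libraries, yet they spread over a wide range (mean 1513 ± 986, SD, against 189 ± 68.8 in CA), and the log2 fold change was 2.99 ± 0.48 (adjusted p = 0.000835, edgeR). IL6, interleukin-6, had 35.9, 42.7, 24.5 and 31.8 in CA and 205, 105, 157 and 105 after exposure (2.08 ± 0.27, adjusted p = 2.39e-05). CXCL1 and CXCL3, 2 further neutrophil chemokines, were near the detection limit in CA (6.15 to 14.9 and 1.15 to 7.18) and were highest in SOAβPIN-SP replicate 1 (84.8 and 46.3). CXCL1 rose by 1.93 ± 0.48, and in CXCL3 (2.20 ± 0.58) the groups overlapped at 6.28 in SOAβPIN-SP replicate 4. The member that fell was CSF1, the macrophage growth factor (−0.67), and no member fell without CA replicate 1, 3 or 4 or SOAβPIN-SP replicate 2 or 3. TNF had no count in any of the 8 libraries, and CCL2 had at most 2. Without CA replicates 1 and 4 CXCL1 was no longer a DEG (log2 fold change 1.84, adjusted p = 0.0528), nor without replicates 2 and 3 was CXCL3 (1.79, adjusted p = 0.061).

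Of 19 NF-κB subunits and feedback genes tested, 9 were upregulated and 1 was downregulated (BCL3, −0.83), with a median of 0.52. NFKBIA, the inhibitor IκBα that holds NF-κB in the cytoplasm, had 1662, 1237, 2001 and 1651 in CA and 4495, 4257, 4185 and 4127 after SOAβPIN-SP. TNFAIP3, the ubiquitin-editing enzyme A20, had 459, 360, 535 and 435 in CA and 1693, 1543, 1624 and 1081 after exposure. Both were higher in every exposed library, by 1.38 ± 0.11 (adjusted p = 1.44e-07) and 1.73 ± 0.20 (adjusted p = 2.06e-05) in edgeR. ZC3H12A, an RNase that degrades cytokine mRNAs, rose from 26.7 to 50.04 to 75.4 to 196 (1.92 ± 0.39). The increase of BIRC3, an inhibitor of apoptosis, rested on 1 library: SOAβPIN-SP replicate 1 had 153 and the others 17.8 to 35.7, against 6.84 to 28.7 in CA, so that 2.14 ± 0.66 (adjusted p = 0.0303) became 1.09 (adjusted p = 0.0741) without it, and without CA replicate 1, 2 or 3 it was 1.88 to 2.08 (adjusted p 0.0713 to 0.087). With the replicate number as a block, which does not pair the samples, it was 1.99 (adjusted p = 0.0597). Of 13 receptors of cytokines and death ligands tested 2 were upregulated and none was downregulated: the decoy receptor TNFRSF10D rose from 358 to 623 to 1450 to 1768 (1.81 ± 0.17) and the death receptor TNFRSF10A by 0.58 ± 0.10.

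The plot of gene lists sets these groups beside the other programmes examined.

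**Figure D2:**
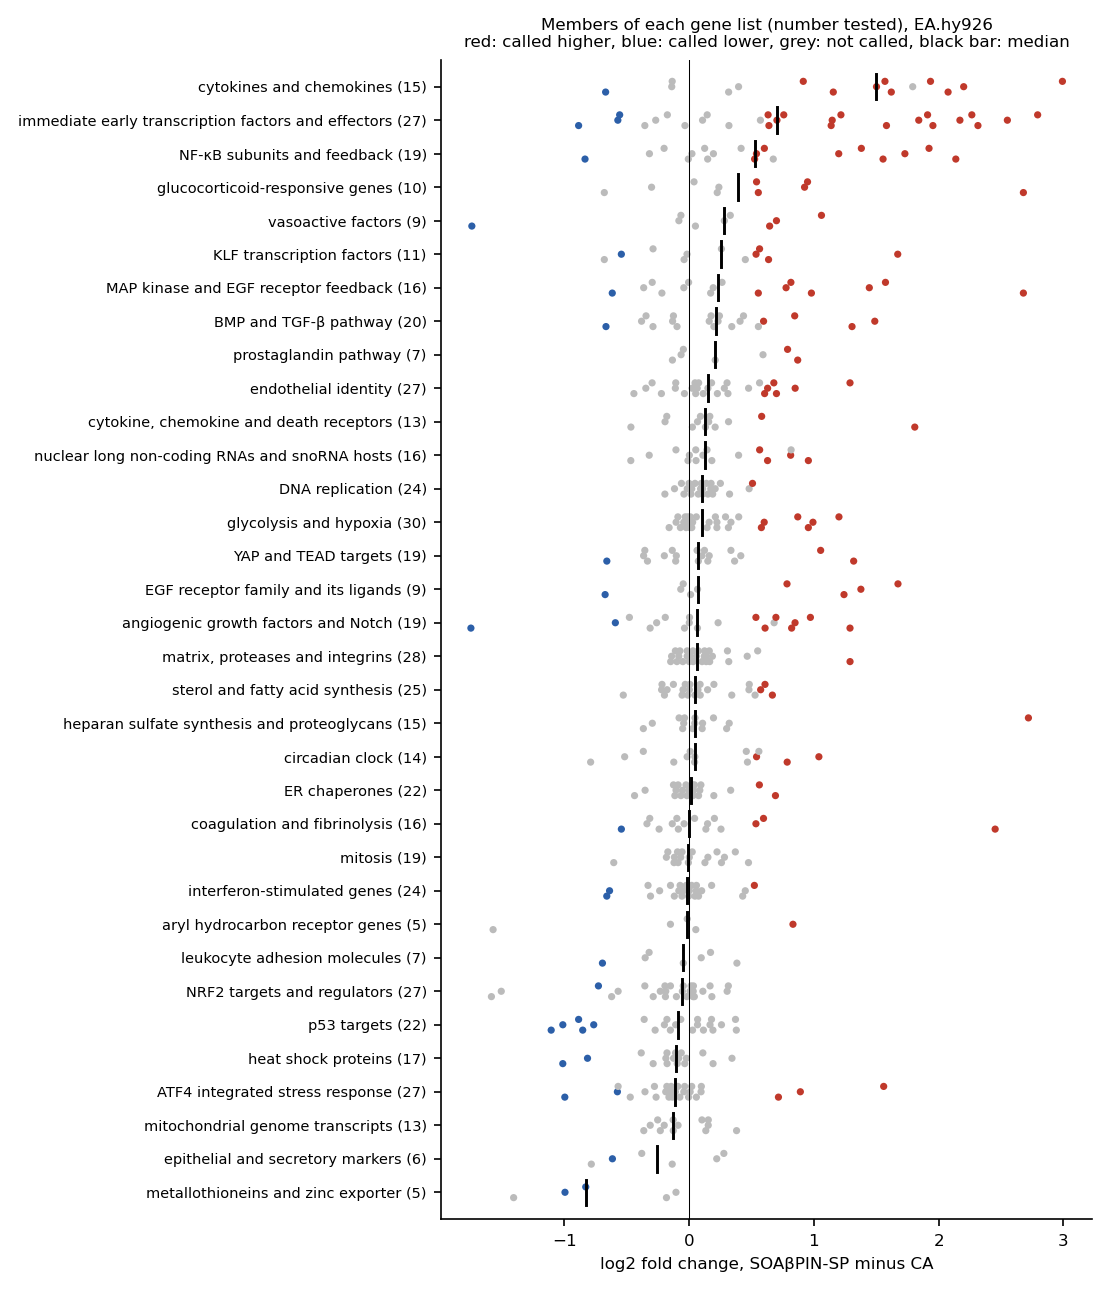
Log2 fold change of SOAβPIN-SP minus CA in EA.hy926 cells (horizontal axis) for the tested members of each gene list with at least 5 tested members (number in brackets). Points are genes, red for upregulated DEGs, blue for downregulated DEGs and grey for others, and black bars are list medians, from 1.50 for cytokines and chemokines to −0.83 for metallothioneins and the zinc exporter. Members scarce in CA could pass the filter through exposed libraries alone.

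Among vascular genes, individual members moved in both directions. APLN, which encodes apelin, a peptide that relaxes vessels, had 9027, 9332, 8681 and 6314 in CA and 2582, 1759, 2493 and 3136 after SOAβPIN-SP. PDGFB, the growth factor by which endothelium recruits pericytes, had 1049, 879, 763 and 618 in CA and 255, 227, 220 and 281 after exposure. Both fell in every exposed library, to 0.299 and 0.297 of the CA level (log2 fold changes −1.74 ± 0.17, adjusted p = 4.6e-06, and −1.75 ± 0.19, adjusted p = 7.5e-06, edgeR). APLN was the 1 downregulated gene among 9 vasoactive factors tested, of which 3 rose, among them the hormone STC1 (1.06 ± 0.24) and the receptor gene CALCRL. The vasoconstrictor EDN1 stood at 773 to 1615 and 1091 to 1238 (−0.07 ± 0.20, adjusted p = 0.857) and the nitric oxide synthase NOS3 at 1286 to 1836 and 1440 to 2363 (0.28 ± 0.14, adjusted p = 0.149). Of 19 angiogenic and Notch genes tested 7 were upregulated and 2, PDGFB and HES1, downregulated. VEGFA, the main growth factor for endothelium, had 183, 222, 197 and 202 in CA and 340, 421, 436 and 377 after exposure (0.97 ± 0.12). FGF5 rose by 0.85 ± 0.13, and the Notch ligand JAG1 by 0.54 ± 0.17 with groups that overlapped, an increase lost without CA replicate 2 or 4 or SOAβPIN-SP replicate 2 or 3.

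Of 27 endothelial identity genes tested, 6 were upregulated and none was downregulated, with a median of 0.15. ANGPT2, which loosens contacts of endothelium with pericytes, rose from 47.2 to 87.3 to 126 to 168 (log2 fold change 1.29 ± 0.22). ERG, the transcription factor that maintains endothelial identity, rose from 841 to 1335 to 1830 to 2145 (0.85 ± 0.12), and the receptors CALCRL and FLT1 by 0.70 and 0.68. PECAM1 was at 693 to 851 and 598 to 877 (−0.11 ± 0.11, adjusted p = 0.537). Without CA replicates 1 and 4, 4 members were upregulated, and without replicates 2 and 3 there were 9. Of 7 leukocyte adhesion genes tested 1, the sialomucin CD34, was downregulated (−0.69 ± 0.12). The adhesion receptor ICAM1 stood at 54.4 to 132 in CA and 45.7 to 106 after exposure (−0.35 ± 0.27, adjusted p = 0.378).

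HS3ST1, the sulfotransferase that makes antithrombin-binding sites on heparan sulfate, had 92.4, 56.6, 129 and 97.4 in CA and 714, 624, 661 and 486 after SOAβPIN-SP (log2 fold change 2.72 ± 0.21, adjusted p = 4.74e-07, edgeR). It was the 1 DEG among 15 tested genes of heparan sulfate synthesis and proteoglycans, whose median was 0.05. Of 16 coagulation and fibrinolysis genes tested 3 were upregulated and 1, the thrombin receptor F2RL2, was downregulated. SERPINB2, plasminogen activator inhibitor 2, rose from 12.8 to 31.8 to 83.6 to 171 (2.45 ± 0.36, adjusted p = 0.000171). Tissue factor pathway inhibitor (TFPI) rose from 746 to 854 to 1110 to 1269 (0.60 ± 0.10) and tissue plasminogen activator (PLAT) by 0.54 ± 0.12. PLAT was not a DEG without CA replicate 1 (0.43) or 4 (0.48) or SOAβPIN-SP replicate 3 (0.47), nor F2RL2 without CA replicate 1 or SOAβPIN-SP replicate 2 or 3 (adjusted p 0.0548 to 0.0712). Tissue factor (F3) had at most 6 counts. In the prostaglandin pathway the cyclooxygenase PTGS2 had at most 9 counts in CA and 0 in SOAβPIN-SP, while the receptor PTGER4 (0.87 ± 0.15) and the transporter SLCO2A1 (0.79 ± 0.28) were the 2 of 7 tested members that rose. The groups of SLCO2A1 overlapped, and it was a DEG in only 2 of the 8 fits that left out 1 library (adjusted p up to 0.119).

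The downregulated genes included a block of p53 targets. Of 22 tested, 5 were downregulated and none was upregulated: SESN1, TIGAR, BTG2, PHLDA3 and MDM2. SESN1, a stress-responsive inhibitor of mTOR signalling, had 472, 346, 362 and 369 in CA and 175, 217, 168 and 161 after SOAβPIN-SP. TIGAR, a fructose bisphosphatase, had 297, 322, 372 and 327 in CA and 180, 173, 155 and 145 after exposure. MDM2, a ubiquitin ligase, had 2340, 2573, 2804 and 2130 in CA and 1239, 1472, 1600 and 1483 after exposure. In none of the 5 did the groups overlap, and the log2 fold changes ran from −1.11 ± 0.14 (SESN1, adjusted p = 1.4e-05, edgeR) to −0.76 ± 0.09 (MDM2, adjusted p = 8.09e-06). The cell cycle inhibitor CDKN1A, also a p53 target, stood at 3195 to 4601 and 3689 to 4671 (0.18 ± 0.12, adjusted p = 0.299), and the list's median was −0.09. The 5 decreases were called in each fit that left out 1 library, without experiment 38 and without either pair of CA libraries.

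Genes with the largest decreases belonged to several families. GIMAP6, a GTPase of immune and endothelial cells, had 521, 415, 434 and 431 in CA and 122, 152, 147 and 181 after SOAβPIN-SP (log2 fold change −1.58 ± 0.13, adjusted p = 1.44e-07, edgeR). GIMAP1 fell by 0.99 ± 0.16 on the same scale, and GIMAP4 was lower in every exposed library with a change of −0.49 ± 0.11, just short of the size required. FAM43A, a gene of little-known function, had 3932, 4201, 3790 and 2880 in CA and 782, 1017, 1124 and 1170 after exposure (−1.85 ± 0.14). AJUBA, a LIM protein of cell contacts that restrains Hippo kinases, had 3051, 3683, 3414 and 2888 in CA and 855, 980, 1061 and 1309 after exposure (−1.63 ± 0.17). The groups of these genes did not overlap. The zinc finger genes ZNF587B (−1.93 ± 0.20) and ZNF260 (−1.47 ± 0.18), the repressor HIC1 (−1.78 ± 0.21), ELMSAN1, a subunit of a histone deacetylase complex (−1.44 ± 0.18), and SYNPO, an actin-binding protein (−1.41 ± 0.25), fell to a like extent.

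Genes of oxidative and xenobiotic stress showed few DEGs. Of 27 NRF2 targets and regulators tested, none was upregulated and 1, the ubiquitin ligase TRIM16, was downregulated (log2 fold change −0.73 ± 0.15), with a median of −0.05. NQO1, the quinone reductase induced by NRF2, had 1564, 1558, 1579 and 1825 in CA and 1496, 1515, 1393 and 1477 after SOAβPIN-SP (−0.15 ± 0.07, adjusted p = 0.117, edgeR). HMOX1, heme oxygenase 1, had 374, 371, 658 and 1870 in CA and 239, 292, 292 and 328 after exposure (−1.51 ± 0.54, adjusted p = 0.0619, edgeR). CA replicate 4 decided the size of that difference, which was −0.70 (adjusted p = 0.235) without it, while DESeq2 gave −1.50 (adjusted p = 0.0176). The 4 members too low to test, the reductases AKR1C1 and AKR1C2, the peroxidase GPX2 and the transporter ABCC3, were instead highest in CA replicate 1, with summed counts of 500, 46, 69 and 73 in CA and 58, 45, 58 and 55 after SOAβPIN-SP. That library also held the most epithelial marker counts (164 against 28 to 57 in the other 7), and their part in the result was not tested. Without CA replicate 1, and likewise without replicate 2, 3 tested members were downregulated. The xenobiotic enzymes CYP1A1 and CYP1B1 had at most 2 and 1 counts in the 8 libraries, and 1 of 5 tested genes of the aryl hydrocarbon receptor, TIPARP, was upregulated (0.83 ± 0.10).

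Metallothioneins, which bind zinc and copper, and the zinc exporter SLC30A1 had a median of −0.83, with 2 of 5 tested members downregulated. MT1E had 552, 647, 712 and 1899 in CA and 517, 482, 446 and 466 after SOAβPIN-SP, again with CA replicate 4 apart. Its log2 fold change of −0.995 ± 0.31 (adjusted p = 0.036, edgeR) was −0.42 (adjusted p = 0.00379) without that library and −0.96 to −1.03 (adjusted p 0.0663 to 0.0859) without any 1 SOAβPIN-SP library. With the replicate number as a block, which does not pair the samples, the change of MT1E was −0.87 (adjusted p = 0.0628, edgeR). SLC30A1 fell by 0.83 ± 0.23, and without CA replicate 4 its change was −0.65 (adjusted p = 0.0561), so that neither was then a DEG. The inducible heat shock genes HSPA1A and HSPA1B, whose reads can be hard to assign because the copies are nearly identical, fell by 1.01 ± 0.17 and 0.81 ± 0.14 on the log2 scale. HSPA1A had 939, 915, 982 and 1378 in CA and 529, 512, 484 and 562 after exposure, and the change was −0.86 (adjusted p = 0.000705) without CA replicate 4. The other 15 heat shock genes tested were not DEGs, and HSP90AA1 changed by −0.11 ± 0.07 (adjusted p = 0.288).

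The integrated stress response moved in parts. PPP1R15A, the regulatory subunit of the phosphatase that restores translation after eIF2α phosphorylation, had 1301, 2136, 1781 and 1592 in CA and 5275, 5115, 4865 and 4794 after SOAβPIN-SP (log2 fold change 1.56 ± 0.16, adjusted p = 6.93e-06, edgeR). ATF4, the transcription factor of this response, rose from 3367 to 5193 to 6172 to 8027 (0.72 ± 0.10), and the amino acid transporter SLC38A2 by 0.89 ± 0.17. TRIB3, a pseudokinase induced by ATF4, fell by 1.00 ± 0.16 and PSAT1, an enzyme of serine synthesis, by 0.58. Of 27 members tested 3 were upregulated, 2 were downregulated and 22 were not DEGs, with a median of −0.11, and 1 in place of 2 was downregulated without CA replicate 2 or 4 or SOAβPIN-SP replicate 2, 3 or 4. Among 22 endoplasmic reticulum chaperones and sensors 2 were upregulated, the sensor ERN1 (0.69 ± 0.14) and the co-chaperone DNAJB9 (0.56 ± 0.17), which was not a DEG without CA replicate 1 (adjusted p = 0.0623), CA replicate 4 (0.0513) or SOAβPIN-SP replicate 3 (0.0608). The chaperone HSPA5 stood at 16077 to 21392 and 18751 to 21912 (0.04 ± 0.11, adjusted p = 0.822).

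Smaller groups of genes rose in metabolism and rhythm. Of 30 glycolysis and hypoxia genes tested 6 were upregulated and none was downregulated, with a median of 0.10. They included the histone demethylase KDM3A (201 to 285 in CA and 498 to 570 after exposure, 1.20 ± 0.10), the glycolytic regulator PFKFB3 (0.96 ± 0.14) and the glucose transporter SLC2A3 (0.87 ± 0.11), while the transporter SLC2A1 changed by −0.16 ± 0.09 (adjusted p = 0.22). Of 10 glucocorticoid-responsive genes 5 were upregulated, ERRFI1 among them, with GLUL, glutamine synthetase, at 0.95 ± 0.09 and the kinase SGK1 at 0.93 ± 0.11. FKBP5 (0.23 ± 0.08, adjusted p = 0.0585) and TSC22D3 (0.04 ± 0.15, adjusted p = 0.887), 2 widely used reporters of that receptor, were not DEGs. In the circadian clock list 3 of 14 rose: the repressor NFIL3 (1.04 ± 0.17), NR1D1 (0.79 ± 0.20) and PER1 (0.54 ± 0.17). Clock time at sampling is not given by the labels, and its part in the result was not tested. PER1 was lost without CA replicate 1 or 4 or SOAβPIN-SP replicate 2 or 3 (adjusted p 0.062 to 0.083), and the glucocorticoid-responsive count fell from 5 to 3 without SOAβPIN-SP replicate 3. Without CA replicates 1 and 4, PER1 (0.24, adjusted p = 0.33) and NR1D1 (0.45, adjusted p = 0.121) were not DEGs.

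KLF4, a flow-responsive factor of endothelium, rose from 35.8 to 67.7 in CA to 139 to 210 (log2 fold change 1.67 ± 0.25, adjusted p = 0.000136, edgeR), and KLF2, its relative with the same responsiveness, stood at 6453 to 8335 and 4883 to 8492 (−0.04 ± 0.14, adjusted p = 0.87). Of 11 KLF genes tested 4 were upregulated and KLF10 was downregulated. The 4 became 2 without SOAβPIN-SP replicate 3, and KLF10 was not a DEG without CA replicate 1 (−0.49) or SOAβPIN-SP replicate 4 (−0.49). In the BMP and TGF-β list, 4 of 20 were upregulated and 1 was downregulated: the activin antagonist FST rose by 1.49 ± 0.23 and ID2 by 1.31 ± 0.24, while ID1, the classical BMP target in endothelium, fell by 0.67 ± 0.16. Of 19 YAP and TEAD targets tested CCN1 (1.05 ± 0.13) and NUAK2 (1.32 ± 0.12) rose and FJX1 (−0.66 ± 0.08) fell, and CCN2 changed by 0.41 ± 0.20 (adjusted p = 0.168). The extracellular protease ADAMTS1 (1.29 ± 0.25) was the 1 DEG of 28 matrix genes tested. Without CA replicates 2 and 3, 6 matrix genes were upregulated, and without replicates 1 and 4, 1 was upregulated and 2 were downregulated. In 3 lists of 16, 24 and 25 tested genes, long non-coding RNAs with SNHG7 (0.96 ± 0.09), DNA replication with POLE2 (0.51 ± 0.11) and sterol and fatty acid synthesis with MYLIP (0.67 ± 0.14), 4, 1 and 3 genes rose and none fell. The sterol count was 1 without CA replicate 4 and 5 without experiment 38, POLE2 was not a DEG without CA replicate 2 (0.44) or 3 (0.48) or SOAβPIN-SP replicate 1 (0.47), and 1 long non-coding RNA was downregulated without CA replicate 4. None of 19 mitosis genes and 13 mitochondrially encoded genes was a DEG. Interferon-stimulated genes held 3 DEGs among 24 tested, with IRF1 (−0.64 ± 0.13) and STAT2 (−0.66 ± 0.18) lower and SAMD9L (0.52 ± 0.10), lost without CA replicate 4 or SOAβPIN-SP replicate 1 or 2 (0.46 to 0.49), higher. KRT80, 1 of 6 tested epithelial markers and the 1 DEG among them, fell by 0.62 ± 0.11.

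Experiment 38, the only one with a library of each group, was used as a check on libraries that had no part in the calls. The 13 other libraries of the line gave 565 upregulated and 612 downregulated genes. In experiment 38, 541 of the 565 were higher after SOAβPIN-SP than after CA and 592 of the 612 were lower, together 96.3% of 1177 genes (95% exact binomial interval 95.0% to 97.3%, counting genes, which are not independent). The median log2 CPM difference was 0.55 for the upregulated and −0.64 for the downregulated genes. Of all 10692 genes tested there, 50.4% were higher. For the 10 genes with the largest increases the difference in experiment 38 ran from 1.25 (IL6) to 3.06 (HS3ST1), and for the 10 with the largest decreases from −2.27 (ZNF587B) to −1.01 (ZNF260), libraries that also entered their selection. NFKBIZ, an atypical IκB that co-activates IL6, moved little there (0.14) against 1.55 ± 0.36 over all libraries.

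SOAβPIN-SP was also compared with SP directly. Per the paper, SP was not aged and received no precursor, and less of it was deposited on the cells at the same dilution. Coating, aging, gas phase and deposited dose therefore cannot be told apart here. No gene was a DEG in edgeR's quasi-likelihood test (0%), in limma-voom or in DESeq2, and the lowest adjusted p in edgeR was 0.988. An unadjusted p under 0.05 in edgeR was found for 355 of 10709 genes, a smaller share than chance gives when no gene differs. For ERRFI1 the SP libraries had 4968, 5023 and 4857, inside the range of the SOAβPIN-SP libraries. For HS3ST1 they had 539, 504 and 849, and for APLN 3432, 2531 and 3083, again overlapping SOAβPIN-SP. Over the 10 genes with the largest increases the log2 difference from SP ran from −0.01 to 0.65 and over the 10 with the largest decreases from −0.84 (HIC1) to 0.07. Both sets were picked by their SOAβPIN-SP values, which enter this difference too, so the ranges are given as a description. The immediate early list had a median difference of 0.24, against −0.003 over all tested genes. These 2 groups share no experiment, and a missed threshold with 4 and 3 libraries does not show that the aerosols acted alike.

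Against the naphthalene SOA, 64 of 10709 genes (0.598%) were DEGs, 36 (0.336%) higher and 28 (0.261%) lower in SOAβPIN-SP. Of 27 immediate early genes 5 were lower in SOAβPIN-SP and none was higher. NR4A2 had 489, 534, 400 and 657 after SOANAP-SP, all above the SOAβPIN-SP libraries (log2 difference −0.95 ± 0.21, adjusted p = 0.0393, edgeR). PPP1R15A had 8761, 9429, 5736 and 9495 after SOANAP-SP, above the highest SOAβPIN-SP library (−0.74 ± 0.15, adjusted p = 0.0366). NFKBIZ was likewise lower in SOAβPIN-SP (−1.27 ± 0.27, adjusted p = 0.0294), and SESN1 was the member of the p53 list that differed, at 78.7 to 134 after SOANAP-SP and 161 to 217 after SOAβPIN-SP (0.69 ± 0.15, adjusted p = 0.0366). CXCL8, with 3675, 5026, 2889 and 2512 after SOANAP-SP, overlapped SOAβPIN-SP only at its replicate 1 (2871), and the difference of −1.22 ± 0.43 did not pass the test (adjusted p = 0.23). The 64 DEGs fell to 32 without SOAβPIN-SP replicate 2, to 37 without SOAβPIN-SP replicate 3 and to 36 without SOANAP-SP replicate 1, and DESeq2 gave 135. Whether the genes named here stayed DEGs in those fits was not examined. The paper gives a higher approximate deposition for SOANAP-SP than for SOAβPIN-SP at the same dilution. No experiment held both SOA, so aerosol, deposited dose and experiment cannot be told apart.

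**Figure D3:**
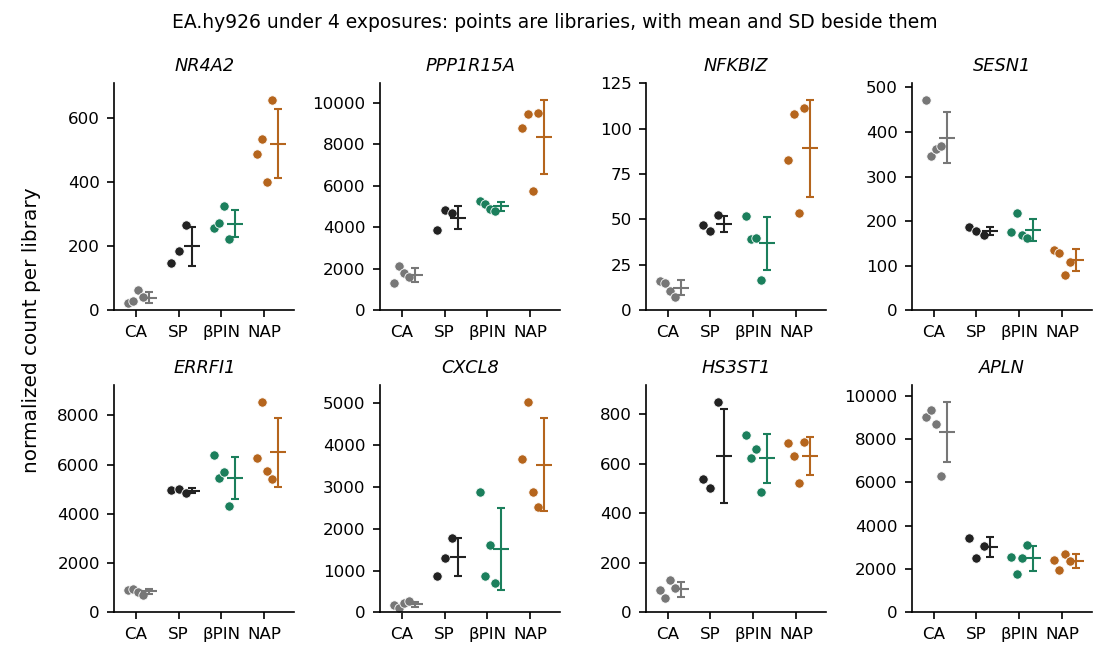
TMM-normalised counts (vertical axis, linear, from 0) of 8 genes in EA.hy926 cells under CA, SP, SOAβPIN-SP (βPIN) and SOANAP-SP (NAP). Points are libraries (4, 3, 4 and 4) with group mean and SD beside them. NR4A2, PPP1R15A and NFKBIZ lie higher and SESN1 lower under NAP than under βPIN, while ERRFI1, HS3ST1 and APLN overlap among the 3 aerosols.

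The A549 cells of the co-culture, which met the aerosol directly, were compared with EA.hy926 by the size of their response. Tested as an interaction over 30 libraries, the effect of SOAβPIN-SP differed between the lines for 1177 of 9900 genes (11.9%), 738 (7.45%) more positive and 439 (4.43%) more negative in EA.hy926. The libraries of the 2 lines came from the same experiments, a pairing that this fit did not model. With the experiment as a random block, limma-voom gave 1194 genes. Of the 27 immediate early genes, 19 had a more positive response in EA.hy926 and none a more negative one. ERRFI1, up by 2.68 in EA.hy926, had a log2 fold change of −0.16 in A549, where 4.44% of the genes tested in both lines were upregulated and 8.21% downregulated (adjusted p = 0.388), and the difference between the lines was 2.85 ± 0.19 (adjusted p = 2.23e-11, edgeR). FOSB fell in A549 by 1.50 (adjusted p = 0.00276), a difference of 4.06 ± 0.55. TNFAIP3 and VEGFA, upregulated in EA.hy926, also fell in A549, by 0.78 and 0.66, with differences of 2.52 ± 0.27 and 1.65 ± 0.16. The genes with the largest changes were picked by their EA.hy926 values, which enter the difference too, so their larger response in that line was favoured by the choice and is given as a description: it was more positive for all 8 of the 10 largest increases tested in both lines and more negative for 2 of 8 of the largest decreases, ZNF587B and ELMSAN1. Of 17 heat shock genes 13 had a more positive response in EA.hy926, among them HSPA1A, which fell in both lines and by 2.22 on the log2 scale in A549.

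**Figure D4:**
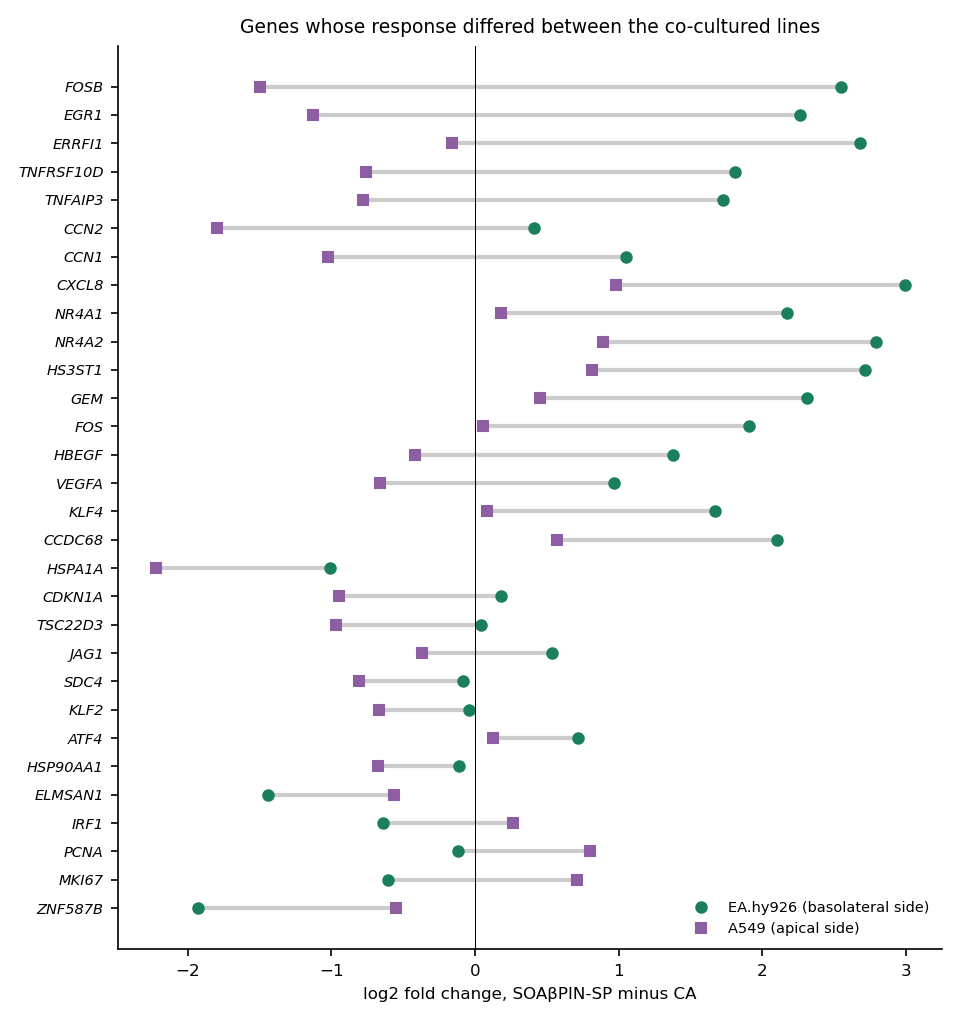
Log2 fold change of SOAβPIN-SP minus CA (horizontal axis) in EA.hy926 (circles, fit of 15 libraries) and A549 (squares, fit of 30 libraries) for 30 genes among the largest changes and list anchors whose response differed between the lines. FOSB at the top rose by 2.55 in EA.hy926 and fell by 1.50 in A549, and ZNF587B at the bottom fell in both, by 1.93 and 0.55.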

How the data were processed

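RNA of EA.hy926 and A549 cells from the co-culture was sequenced as polyA libraries. Per the study's methods, the authors trimmed reads with cutadapt, aligned them with STAR to GRCh38, removed duplicates by molecular identifier and counted uniquely mapped reads per Ensembl gene. The submitters' processing notes name STAR 2.7.3a, DESeq2 1.26.0 and, unlike the methods, the build GRCm38. The authors deposited raw counts per gene, used for all main results, and a signal table of counts divided by DESeq2 size factors, used for 1 alternative as log2(value + 1). The sequencing batch that the study corrected for is not given in the sources used here and was not modelled.

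Genes reaching 30 counts in 3 or more of 15 libraries were tested with edgeR 4.0.16 (R 4.3.3; TMM scaling, robust quasi-likelihood test, exposure as the only factor, all 15 libraries sharing 1 estimate of the spread), adjusted by Benjamini-Hochberg over all tested genes. A DEG had an adjusted p not above 0.05 and a log2 fold change reaching 0.5 either way, where ± gives the SE unless stated. Values per library are TMM-normalised counts. Responses of the 2 lines were compared by an interaction term over 30 libraries. limma 3.58.1, DESeq2 1.42.0, other filters and scalings, a replicate block and the omission of libraries were alternatives. The script was tested on simulated data. Named genes were the 10 largest increases and decreases with a mean of 100 or more in the higher group and no overlap, up to 4 DEGs with the largest change per list, and fixed anchor genes of each list. The members and lists were chosen with earlier results of these data known. A few genes are not reported here. Promoters and coordinates came from RefSeq (GRCh38.p14). Total counts, 10255705 to 13713770 in the compared libraries, limit precision mainly for genes with few counts.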

Additional observations from a re-analysis of the deposited data

Results flagged for a closer look

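In 16 of the 280 groups of 4 libraries examined for 140 named genes, 1 library lay apart from the other 3 by Dixon's criterion at 95%, which chance meets in about 1 in 20 groups. In SOAβPIN-SP replicate 1 these were BIRC3 (153 against 17.8 to 35.7), EPB41L4A-AS1 (512 against 379 to 395), KLF2 (4883 against 8141 to 8492), MT2A (6494 against 5252 to 5406), SNHG8 (317 against 163 to 184) and TRIB3 (488 against 304 to 334), in TMM-normalised counts. In CA replicate 4 these were CCN1 (3064 against 4792 to 5123), HSPA1A (1378 against 915 to 982), MT1E (1899 against 552 to 712), MT2A (9745 against 4856 to 5625) and NQO1 (1825 against 1558 to 1579), in TMM-normalised counts. In CA replicate 2 these were SNHG7 (1199 against 1019 to 1041) and TSC22D3 (785 against 612 to 641), in TMM-normalised counts. In SOAβPIN-SP replicate 4 these were FOSB (605 against 700 to 706) and NRG1 (3954 against 4525 to 4642), in TMM-normalised counts. In CA replicate 3 this was HIC1 (241 against 144 to 153), in TMM-normalised counts.

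The log2 response to SOAβPIN-SP differed between the cell lines in the interaction term of edgeR for 30 of the 66 genes with the largest changes or fixed as list anchors. Over all genes tested in both lines it differed for 1177 of 9900 (11.9%). Genes with the largest changes were picked by their EA.hy926 values, which enter the difference too, so the choice favoured a difference for them. The response in EA.hy926 minus that in A549 was positive for FOSB (4.06), EGR1 (3.41), ERRFI1 (2.85), TNFRSF10D (2.58), TNFAIP3 (2.52), CCN2 (2.23), CCN1 (2.09), CXCL8 (2.02), NR4A1 (2.00), NR4A2 (1.92), HS3ST1 (1.92), GEM (1.88), FOS (1.87), HBEGF (1.81), VEGFA (1.65), KLF4 (1.60), CCDC68 (1.55), HSPA1A (1.23), CDKN1A (1.14), TSC22D3 (1.02), JAG1 (0.92), SDC4 (0.74), KLF2 (0.64), ATF4 (0.61), HSP90AA1 (0.58). It was negative for ZNF587B (−1.36), MKI67 (−1.29), PCNA (−0.90), IRF1 (−0.89), ELMSAN1 (−0.86). The A549 cells received the aerosol directly and the EA.hy926 cells across the membrane, so cell line and position cannot be told apart.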

How the results depend on the processing

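Of 2942 combinations of a named gene with an alternative, 2808 kept the side of the threshold, 105 lost the call and 28 gained it. In the remaining 1, FN1 reversed from −0.08 to 0.72 (adjusted p = 0.000802 in edgeR) without CA replicates 2 and 3. Direction was not compared where a gene was a DEG in neither fit, and such genes could change sign. EDN1, for example, ran from −0.24 to 0.099 over the fits without 1 library. Of the 105 named DEGs, 88 kept the call in every fit without 1 library. With the filter stated in the study's methods (CPM reaching 30 in 3 or more libraries), 6028 genes were tested and 256 were higher and 202 lower. That was 55.9% higher against 45.1%, and the interaction gave 506 of 4722 genes. These are not the paper's counts: it reports more DEGs for this comparison, more of them lower than higher, from limma-voom with a batch correction. Leaving out 1 library gave 484 to 593 higher and 602 to 669 lower genes, 32 to 64 against SOANAP-SP and 960 to 1261 in the interaction. Against SOANAP-SP, DESeq2 gave 135 DEGs, the CPM filter 42, and a fit of the compared groups only 98. Without CA replicates 1 and 4, 491 and 709 genes were higher and lower, and without replicates 2 and 3, 797 and 666, both chosen after seeing the data. A replicate block gave 532 and 658, but same-numbered libraries came from different experiments and did not deviate together (correlations 0.24, 0.0054, 0.20 and −0.18), so the numbers do not pair the samples. The cause of these changes was not tested beyond the smaller numbers of genes and libraries. Differences of genes with few counts are limited by depth.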
